A study of Daucus carota subsp. sativus with 2 samples.

Results

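The transcripts described here encode enzymes of fatty acid, wax and membrane lipid metabolism in carrot roots. They were chosen by a pattern on the protein names in the deposited count table, set with earlier results of these data known, and number 72 of 19838 transcripts. Of these, 11 belong to fatty acid synthesis in the plastid, 27 to elongation and wax, 8 to breakdown and 25 to membrane lipids and lipid signalling. The remaining 1 is an O-acyltransferase whose name gives no substrate. Names were informative for only 18.7% of all transcripts in the table, so lipid genes without a descriptive name are not among the members.

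The study compared roots of a red carrot sold as the Delhi variety with roots of an orange hybrid, both Daucus carota subsp. sativus and both untreated. The series title calls the red carrot wild and the orange one modified; what the modification is, and the age, the number of plants and the part of the root taken, are not given in the labels. Each variety was sequenced as 1 library of poly(A)-selected RNA, so no difference has a replicate check, and every statement below is about these 2 libraries. Depth was 11310179 counts for red and 7432754 for orange.

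In plants, fatty acids are made in plastids on an acyl carrier protein (ACP), starting with the carboxylation of acetyl-CoA. Desaturases and hydrolases then act on the acyl-ACP, and the freed acids leave the plastid. At the endoplasmic reticulum they are built into membrane and storage lipids, or elongated to very-long-chain acids that supply surface wax and the suberin of root periderm. Breakdown takes place in peroxisomes, where acyl-CoA oxidases start each round of beta-oxidation. Phospholipases C and D cut membrane lipids, and diacylglycerol kinases convert the diacylglycerol released by phospholipase C into phosphatidic acid, a lipid signal.

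Counts were divided by a size factor per library, and a transcript was called measured when its mean scaled count was at least 10. A transcript was counted as higher in a library when the ratio of scaled counts was at least 2 and its 95% exact interval excluded equality. The intervals cover counting error only. Counts are not corrected for transcript length, so counts of different transcripts are not compared as expression levels. By this rule 30.6% of the 14868 measured transcripts in the table were higher in red and 24.4% in orange. Of the 55 measured lipid members, 19 (34.5%) were higher in red, 12 (21.8%) in orange and 24 in neither, shares near the background. The median log2 fold, orange over red, was -0.51 over the measured members and -0.06 over all measured transcripts. The middle size of a log2 difference, regardless of direction, was 1.36 for the members and 1.15 for all. At 4-fold, 10 of the 55 measured members were higher in red and 10 of the 55 in orange. The background at 4-fold was 19.8% and 12.6% of the 14868 measured transcripts.

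**Figure D1:**
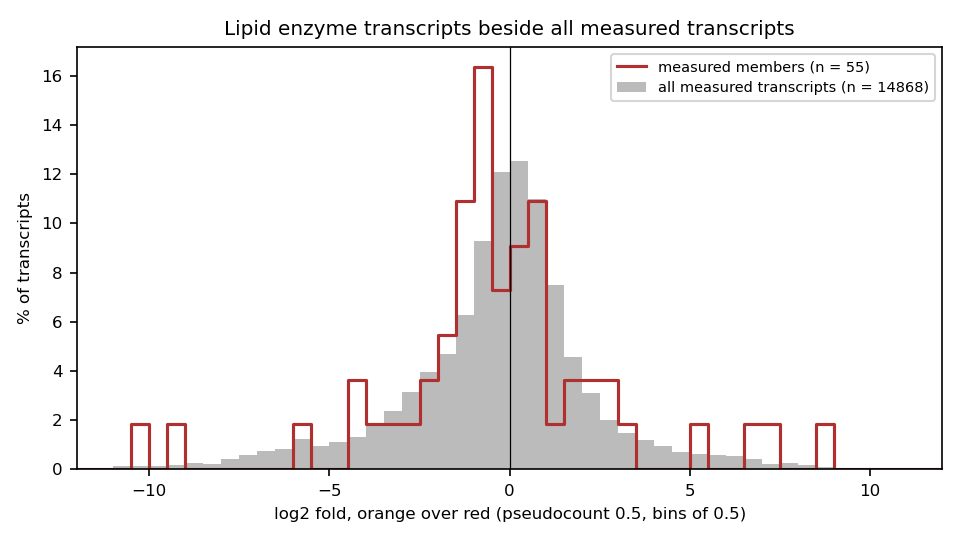
Distribution of the log2 fold, orange over red, on the x axis, with the percentage of transcripts per bin on the y axis; grey bars are the 14868 measured transcripts and the red line the 55 measured lipid members. Both spread widely to either side of 0, with medians of -0.06 and -0.51.

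The direction of small differences depended on how the libraries were scaled. Scaling to total counts moved every log2 ratio by 0.42 toward orange. It makes the sum over all transcripts equal, so in the main scaling that sum was higher in red by a log2 of 0.42. Group and family sums below have this offset as their background. Orange then held 57.0% of the 2-fold differences over all transcripts, against 44.4% in the main scaling. Among the members, 13 were then higher in red and 17 in orange. The median log2 fold became 0.35 over all measured transcripts and -0.09 over the measured members. None (0) of the 31 member calls changed direction; 6 calls toward red were lost and 5 toward orange were gained. Where a named difference is one of these, this is said beside it.

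Genes listed as markers of tissues or of cell division also differed between the libraries. Of 41 measured green-tissue markers (chlorophyll a-b binding proteins, photosystem proteins and the RuBisCO small chain), 33 were higher in red and 3 in orange, and the list of 45 took 4.28% of counts in red against 0.314% in orange. The list's markers with 0 counts in orange were 4, among them RBCS, and none (0) had 0 counts in red. Of 6 measured phloem markers 5 were higher in red and 1 in orange (0.312% and 0.0497% of counts, 9 listed). Among 21 measured laccases and cellulose synthases, 14 were higher in orange and 1 in red (0.216% in red and 0.342% in orange, 31 listed). Of 37 measured histone-related and cell division markers, 13 (35.1%) were higher in orange and 10 (27.0%) in red. They took 0.116% of counts in red and 0.191% in orange (54 listed). The background for all these lists is 24.4% of measured transcripts higher in orange and 30.6% in red. Whether tissue makeup plays a part in the lipid differences was not tested; variety, library and tissue taken cannot be told apart, nor can fewer cells of a type from less RNA per cell. Together the 72 lipid members took 0.627% of counts in red and 0.443% in orange.

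**Figure D2:**
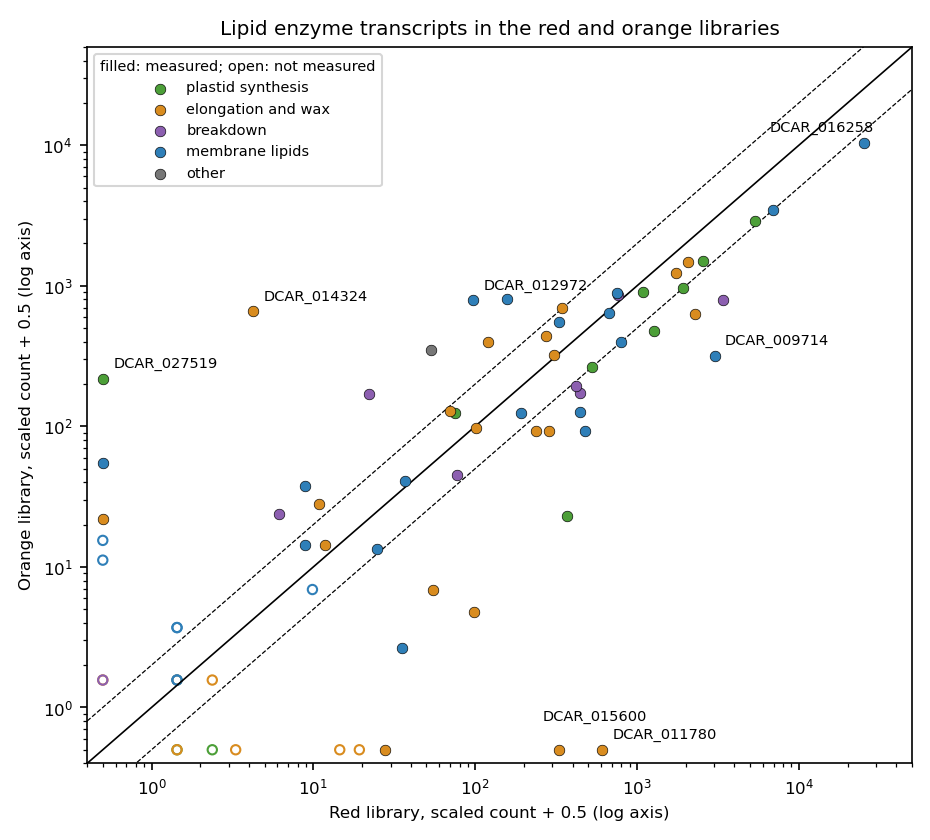
Each point is 1 lipid enzyme transcript, with its scaled count plus 0.5 in the red library on the x axis and in the orange library on the y axis, both on log axes; colours give the functional group, open circles mark transcripts that were not measured, the solid line is equality and the dashed lines are 2-fold. Most transcripts with high counts lie between the dashed lines or just below the lower one, and the transcripts along the axes have 0 counts in 1 library.

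Among the members of plastid fatty acid synthesis, most transcripts had more counts in red, but usually by less than 2-fold. Of 9 measured members of 11, 2 (22.2%) were higher in red, 1 (11.1%) in orange and 6 in neither. Over all measured transcripts the shares were 30.6% and 24.4%. The group's median log2 fold was -0.89. Summed over the group, scaled counts were 1.78-fold higher in red (1.73 to 1.84). Acyl carrier proteins lie outside this group and summed higher in orange, as given below. Biotin carboxylase (LOC104606258), the acetyl-CoA carboxylase subunit that carboxylates biotin at the entry to the pathway, had 1353 red and 446 orange counts. It was 2.66-fold higher in red (2.39 to 2.97), and under 2-fold with total-count scaling (log2 -0.99).

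The 3-oxoacyl-ACP synthases carry out the condensation that adds carbons to the growing chain. DCAR_023707 had 2710 red and 1411 orange counts, or 1.69-fold more in red (1.58 to 1.80). The second, DCAR_019736, had 79 and 116 counts, or 1.67-fold more in orange (1.25 to 2.25). The pair therefore differed in direction, each by less than 2-fold, although DCAR_019736 passed 2-fold toward orange with total-count scaling (log2 1.15). DCAR_023707 held 97.2% of the family's counts in red and 92.4% in orange.

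The acyl-ACP desaturases put the first double bond into the chain. The main transcript by counts, DCAR_031597, had 5699 red and 2694 orange counts (1.86-fold higher in red, 1.77 to 1.95), and DCAR_002144 had 1161 and 853 (1.2-fold, 1.09 to 1.31). These showed modest differences toward red; for DCAR_002144 the direction turned with total-count scaling (log2 -0.26 and 0.16). The third, DCAR_027519, was detected in the orange library alone, with 0 red and 204 orange counts. Against a floor of 3 counts in red it was at least 77.4-fold higher in orange. Each "at least" value below uses this floor and is not a limit of the exact interval. It made up 5.44% of the family's counts in orange (4.73 to 6.21) and at most 0.0538% in red, by the upper bound of the exact interval.

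The acyl-ACP hydrolases release free fatty acids from ACP and so end chain growth in the plastid. DCAR_012668 had 395 red and 21 orange counts and was 16.5-fold higher in red (10.7 to 27.0). The transcripts DCAR_010439 (2043 and 900 counts) and DCAR_004735 (561 and 247) lay just under the 2-fold limit, at 1.99-fold each (1.84 to 2.16 and 1.71 to 2.33). All 3 measured hydrolases thus had more scaled counts in red, by either scaling. The other 2, DCAR_016376 and DCAR_018326, had 2 counts and 1 count in red and 0 in orange. The family sum was 2.26-fold higher in red (2.11 to 2.42).

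**Figure D3:**
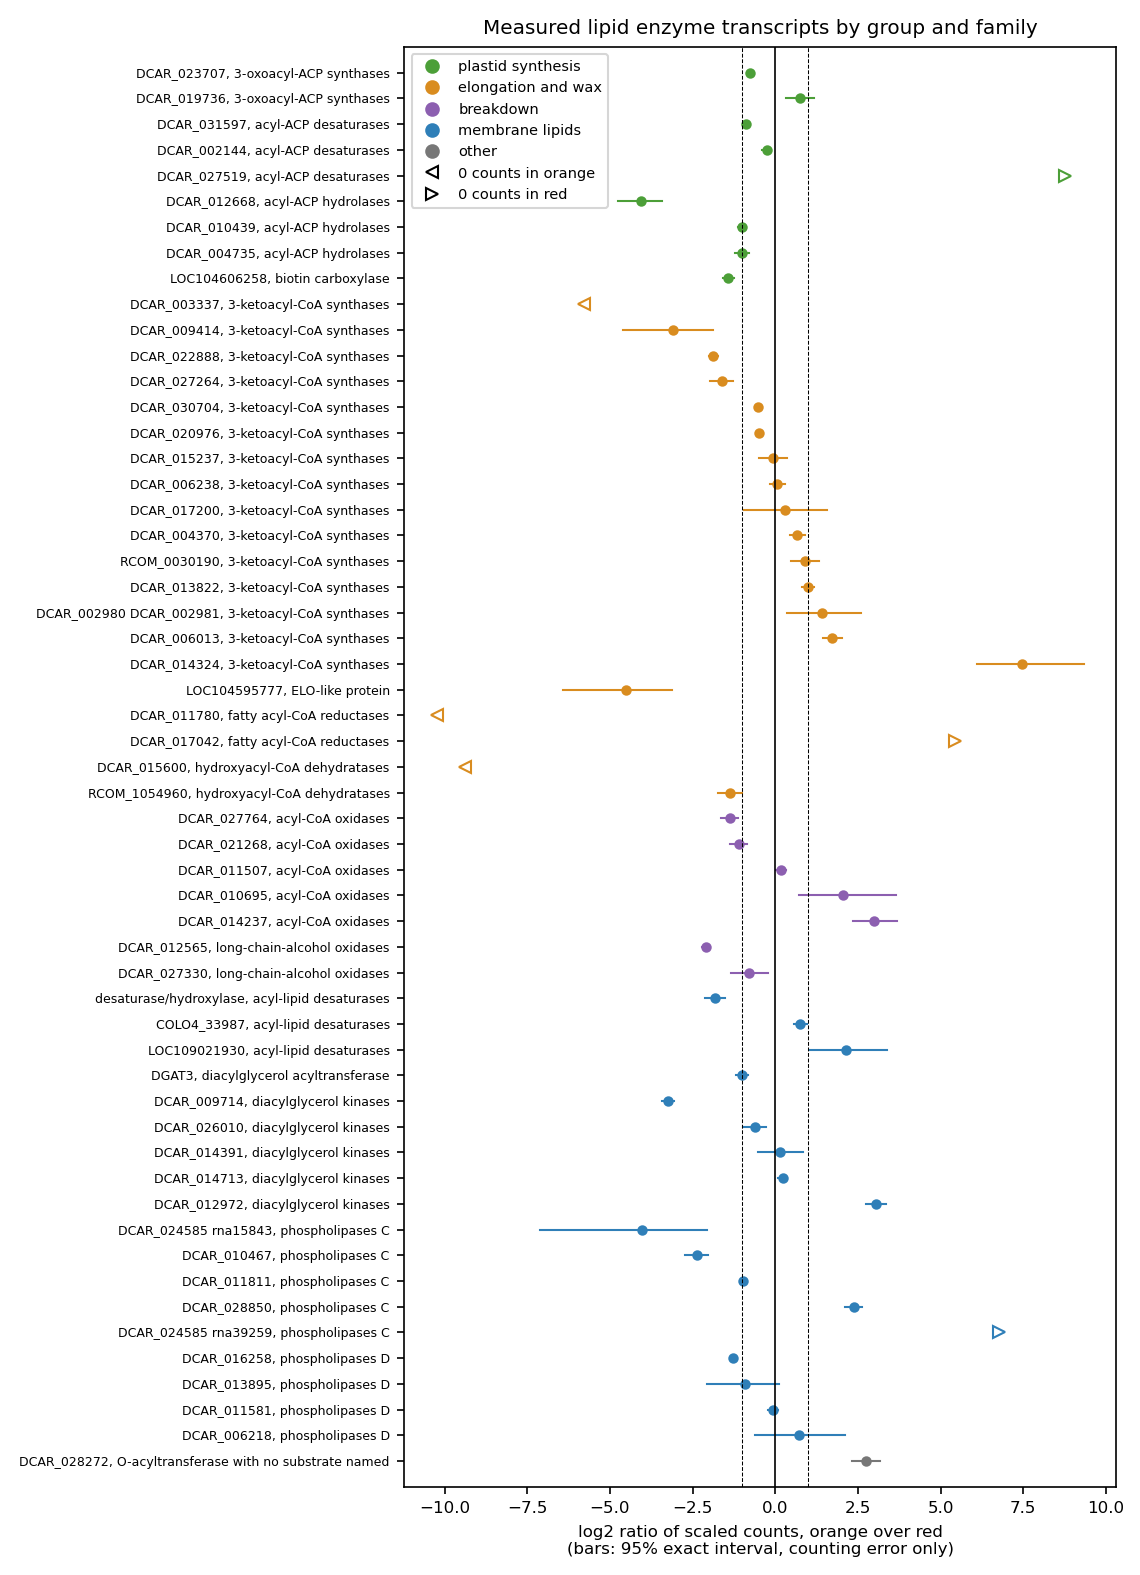
The log2 ratio of scaled counts, orange over red, on the x axis for each of the 55 measured lipid transcripts, with the 95% exact interval from counting error as a bar; dashed lines mark 2-fold. Open triangles have 0 counts in 1 library and are placed with a pseudocount of 0.5, so their position is not a measured ratio. Most plastid synthesis transcripts lie just left of 0, while each family with 5 or more measured transcripts holds points on both sides.

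Elongation and wax, the group with the most members, had the widest range of log2 folds of the 4 groups. Of 20 measured members of 27, 8 (40%) were higher in red, 4 (20%) in orange and 8 in neither. The background shares were 30.6% and 24.4%. Log2 folds ran from -10.24 to 7.28. The median was -0.27, and turned to 0.14 with total-count scaling, where it was 0.35 over all measured transcripts. The lowest 2 values belong to a fatty acyl-CoA reductase and a hydroxyacyl-CoA dehydratase with 0 counts in orange. Their size depends on the pseudocount, so the low end of the range is not a measured ratio. The enzymes of the first elongation step were split between the libraries.

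The 3-ketoacyl-CoA synthases catalyse that first, condensing step and determine which chain lengths are made. Of 19 transcripts 15 were measured, of which 4 were higher in red, 3 in orange and 8 in neither. The family's summed counts were close, at 8229 in red and 5815 in orange. This was 1.24-fold higher in red (1.20 to 1.29) and 1.08-fold higher in orange with total-count scaling.

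Within that near-equal sum, single synthases differed in opposite directions. DCAR_014324 had 4 red and 617 orange counts, which was 176 times as much in orange (68.2 to 647). Its share of the family's counts, which no scaling of the libraries alters, was 0.0486% in red (0.0132 to 0.124) and 10.6% in orange (9.83 to 11.4). DCAR_022888 showed the opposite pattern, with 2435 red and 586 orange counts (3.65-fold higher in red, 3.33 to 4.001). Its share of the family was 29.6% in red (28.6 to 30.6) and 10.1% in orange (9.32 to 10.9).

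Smaller differences lay to either side. Toward orange, DCAR_006013 had 128 and 372 counts (3.31-fold, 2.70 to 4.08). Toward red, DCAR_027264 had 303 and 87 (3.06-fold, 2.40 to 3.93). A low-count transcript, DCAR_009414, had 58 and 6 (8.49-fold higher in red, 3.67 to 24.1). These 3 kept their call with either scaling.

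The synthases DCAR_020976 (2211 red and 1385 orange counts) and DCAR_030704 (1864 and 1153) differed little, at 1.40-fold and 1.42-fold toward red. With total-count scaling both came close to equality (log2 -0.07 and -0.09). DCAR_006238 (326 and 299) and DCAR_015237 (107 and 90) had intervals that included equality. DCAR_013822 lay at the limit, with 369 and 648 counts and a ratio of 1.9995 toward orange (1.76 to 2.28). Like DCAR_004370 (293 and 410) and RCOM_0030190 (74 and 121), it passed 2-fold toward orange with total-count scaling.

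Transcripts of low count filled out the family. One of the pair named DCAR_002980 DCAR_002981 had 11 and 26 counts, which was 2.69-fold higher in orange (1.28 to 6.03). One of the pair named DCAR_003337 had 29 and 0 counts, which was at least 8.49-fold higher in red. DCAR_017200 had 12 and 13. The other 4 had 3 counts or fewer in each library.

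The other elongation enzymes among the members were 2 dehydratases and 1 elongation protein-like transcript, and these had more counts in red. Very-long-chain 3-hydroxyacyl-CoA dehydratase removes water from the elongating chain. Its transcript DCAR_015600 had 353 red and 0 orange counts (at least 103-fold higher in red). The second, RCOM_1054960, had 253 and 86 (2.58-fold, 2.02 to 3.34), and was under 2-fold with total-count scaling (log2 -0.95). With 0 counts for DCAR_015600, all dehydratase counts in the orange library came from RCOM_1054960. An elongation of fatty acids protein 3-like transcript (LOC104595777), of a family that in animals and yeast carries out the condensing step, had 105 and 4 counts (23.1-fold higher in red, 8.74 to 86.2).

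Fatty acyl-CoA reductases turn very-long-chain acyl-CoA into the fatty alcohols of wax and suberin. DCAR_011780 had 645 red and 0 orange counts, at least 189-fold higher in red, and held 94.6% of the family's counts in red (92.6 to 96.2). The orange library had 21 counts for the whole family, of which 20 belonged to DCAR_017042, a transcript with 0 counts in red (at least 7.59-fold higher in orange). Nearly all reductase counts thus came from DCAR_011780 in red and from DCAR_017042 in orange, where the family had only 21 counts. Each of these transcripts passed the filter only through the library that holds its counts. DCAR_017042 lay just past the filter, at a mean scaled count of 10.7, and DCAR_017919, with 20 counts in red alone, just under it at 9.37. DCAR_017919 (20 and 0 counts), DCAR_010366 (15 and 0) and DCAR_013675 (2 and 1) were not measured. The family sum was 28.5-fold higher in red (18.5 to 46.4). Without DCAR_011780 it was 1.55-fold higher, from 37 red and 21 orange counts.

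Among measured transcripts of the whole table, 3.09% had reads in red and 0 in orange, and 1.72% the reverse. Of the 55 measured members, 3 had 0 in orange (DCAR_011780, DCAR_015600 and DCAR_003337), all in elongation and wax, the group with the most members. Another 3 had 0 in red, of which 1 each lay in plastid synthesis (DCAR_027519), elongation and wax (DCAR_017042) and membrane lipids (DCAR_024585). Such members passed the filter only through the other library, so their place in a group shows no trait of that group. With unmeasured members included, 9 had 0 in orange (7 in elongation and wax, 2 in plastid synthesis) and 7 had 0 in red.

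**Figure D4:**
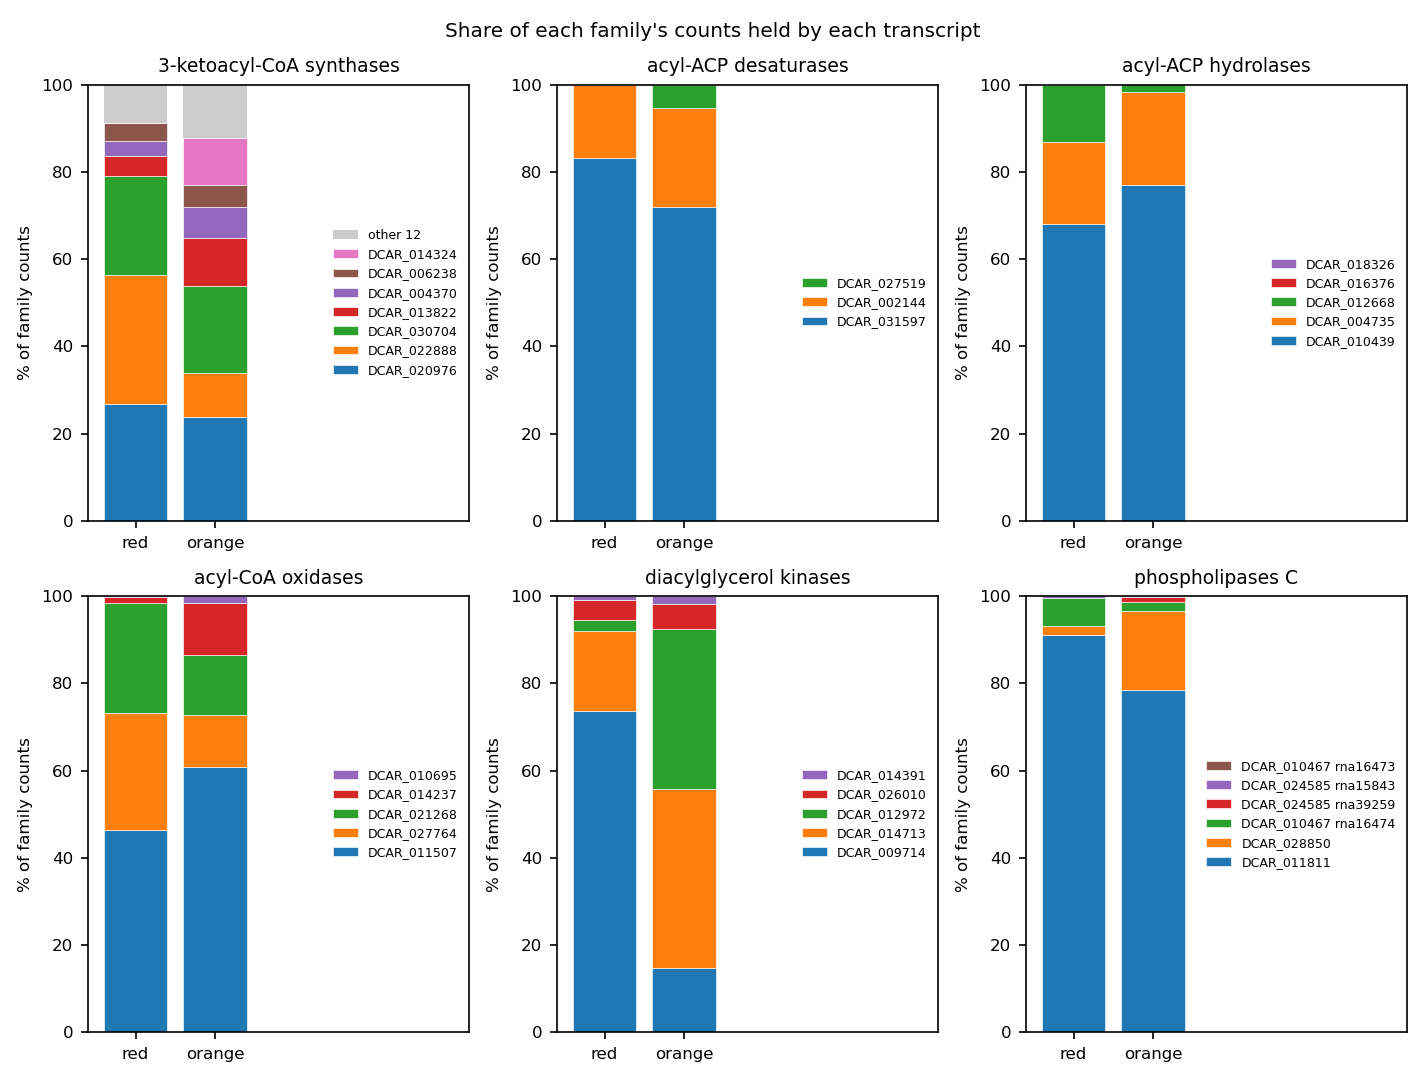
Share of a family's counts, in percent on the y axis, held by each transcript in the red library (left bar) and the orange library (right bar) for 6 families; colours name the transcripts and grey pools the other 12 synthases. DCAR_009714 holds 73.6% of diacylglycerol kinase counts in red and 14.7% in orange, and DCAR_014324 is visible among the 3-ketoacyl-CoA synthases in orange alone. Counts are not corrected for transcript length, so a share is one of reads and not of molecules.

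Among breakdown enzymes, 7 of 8 were measured, of which 3 (42.9%) were higher in red, 2 (28.6%) in orange and 2 in neither. The background shares were 30.6% and 24.4%. The group's median log2 fold was -0.77. Acyl-coenzyme A oxidases differed in both directions. DCAR_027764 had 475 red and 161 orange counts (2.59-fold higher in red, 2.16 to 3.12), and DCAR_021268 had 445 and 182 (2.15-fold, 1.80 to 2.57). Both were under 2-fold with total-count scaling (log2 -0.95 and -0.68). In the other direction, DCAR_014237 had 23 and 160 counts, which was 7.92-fold higher in orange (5.10 to 12.9). DCAR_010695, with 6 and 22 counts, was 4.17-fold higher in orange (1.64 to 12.6). The oxidase with the most counts, DCAR_011507, had 819 and 811 (1.13-fold higher in orange, 1.02 to 1.24). The oxidase sum was 1.16-fold higher in red (1.08 to 1.25) and 1.15-fold higher in orange with total-count scaling.

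Long-chain-alcohol oxidases oxidise fatty alcohols to aldehydes. DCAR_012565 had 3610 red and 745 orange counts and was 4.26-fold higher in red (3.93 to 4.61). DCAR_027330 had 82 and 42 (1.71-fold, 1.17 to 2.55), and DCAR_024279 had 0 and 1. DCAR_012565 held 66.1% of the group's counts in red and 35.1% in orange. Scaled counts of the whole breakdown group were 2.26-fold higher in red (2.15 to 2.37). Without this transcript they were 1.18-fold higher in red, and 1.13-fold higher in orange with total-count scaling.

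The membrane lipid group was led in counts by a single phospholipase D. Of 18 measured members of 25, 6 (33.3%) were higher in red, 4 (22.2%) in orange and 8 in neither, shares near the background of 30.6% and 24.4%. The median log2 fold was -0.34 and became 0.07 with total-count scaling, against 0.35 over all measured transcripts in that scaling. Phospholipase D DCAR_016258 had 26931 red and 9781 orange counts and was 2.42-fold higher in red (2.36 to 2.48), or under 2-fold with total-count scaling (log2 -0.86). It held 97.3% of phospholipase D counts in red and 93.8% in orange, and 37.97% and 29.7% of the counts of all 72 members. Summed over the group, scaled counts were 2.08-fold higher in red (2.04 to 2.11), and 1.65-fold without this transcript.

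The other phospholipases D had few counts or near-equal ones. DCAR_011581 had 716 and 601 counts (1.05-fold higher in red, 0.937 to 1.17, an interval that includes equality). DCAR_013895 (26 and 12 counts) and DCAR_006218 (9 and 13) likewise had intervals that included equality. DCAR_014885 had 0 and 14 counts, and DCAR_025349 and DCAR_025506 had 1 count in each library; these 3 were not measured.

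Phosphoinositide phospholipases C, which cut phosphoinositides to diacylglycerol and a soluble inositol phosphate, differed transcript by transcript. DCAR_011811 had 7337 red and 3260 orange counts, at 1.98-fold toward red (1.90 to 2.06) just under the limit. DCAR_010467 rna16474 had 508 and 86 (5.19-fold higher in red, 4.12 to 6.60). DCAR_028850 had the reverse, 167 and 758 (5.17-fold higher in orange, 4.37 to 6.15), and its share of the family was 2.07% in red and 18.2% in orange.

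A further pair of phospholipase C transcripts carries the same gene name, DCAR_024585. The transcript rna15843 had 37 red and 2 orange counts (16.2-fold higher in red, 4.19 to 139). The transcript rna39259 had 0 and 51 (at least 19.4-fold higher in orange). The table thus holds opposite differences under 1 gene name. Whether the reads of near-identical copies were divided differently between them in the 2 libraries was not tested, since transcript sequences were not used here. The last family member, DCAR_010467 rna16473, had 1 and 3 counts, which was not measured.

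Diacylglycerol kinases divided their counts differently in the 2 libraries, as the plot of family shares shows. DCAR_009714 had 3212 red and 298 orange counts and was 9.47-fold higher in red (8.40 to 10.7). DCAR_012972 had 103 and 741 and was 8.19-fold higher in orange (6.66 to 10.2). DCAR_014713, with 807 and 829 counts, differed by 1.17-fold (1.06 to 1.29). The share of DCAR_009714 among the kinases was 73.6% in red (72.2 to 74.9) and 14.7% in orange (13.2 to 16.4). DCAR_012972 held 2.36% in red (1.93 to 2.85) and 36.6% in orange (34.5 to 38.8). DCAR_026010 (205 and 117 counts) and DCAR_014391 (39 and 38) were under 2-fold. The family sum was 1.90-fold higher in red (1.80 to 1.999), and 1.70-fold higher in orange without DCAR_009714.

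Acyl-lipid desaturases add further double bonds to fatty acids in membrane lipids. The transcripts grouped under that heading here have names that do not state a membrane lipid substrate. They were near-equal in sum, at 836 red and 688 orange counts. This was 1.07-fold toward red (0.964 to 1.18), and 1.25-fold toward orange with total-count scaling. A transcript named only as a fatty acid desaturase/hydroxylase, with no gene name, had 475 and 119 counts (3.51-fold higher in red, 2.86 to 4.32). A type 1 desaturase, COLO4_33987 rna30955, had 351 and 521 (1.69-fold toward orange, 1.47 to 1.94), and passed 2-fold with total-count scaling (log2 1.17). The FAD2-like desaturase LOC109021930, of the family that makes linoleic from oleic acid, had 9 and 35 counts, which was 4.43-fold higher in orange (2.09 to 10.47). The other type 1 desaturases under the name COLO4_33987 had 0 and 10 counts and 1 and 3 counts.

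For lipid assembly there were 2 transcripts. DGAT3, a diacylglycerol acyltransferase that makes storage triacylglycerol, had 845 and 370 counts and lay just past the limit at 2.01-fold higher in red (1.77 to 2.27), and under it with total-count scaling (log2 -0.59). The ethanolamine and cholinephosphotransferase CDL12_07801, which makes the main membrane phospholipids, had 10 and 6 counts, which was not measured. The O-acyltransferase with no named substrate, DCAR_028272, had 56 and 328 counts, which was 6.67-fold higher in orange (5.01 to 9.02).

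**Figure D5:**
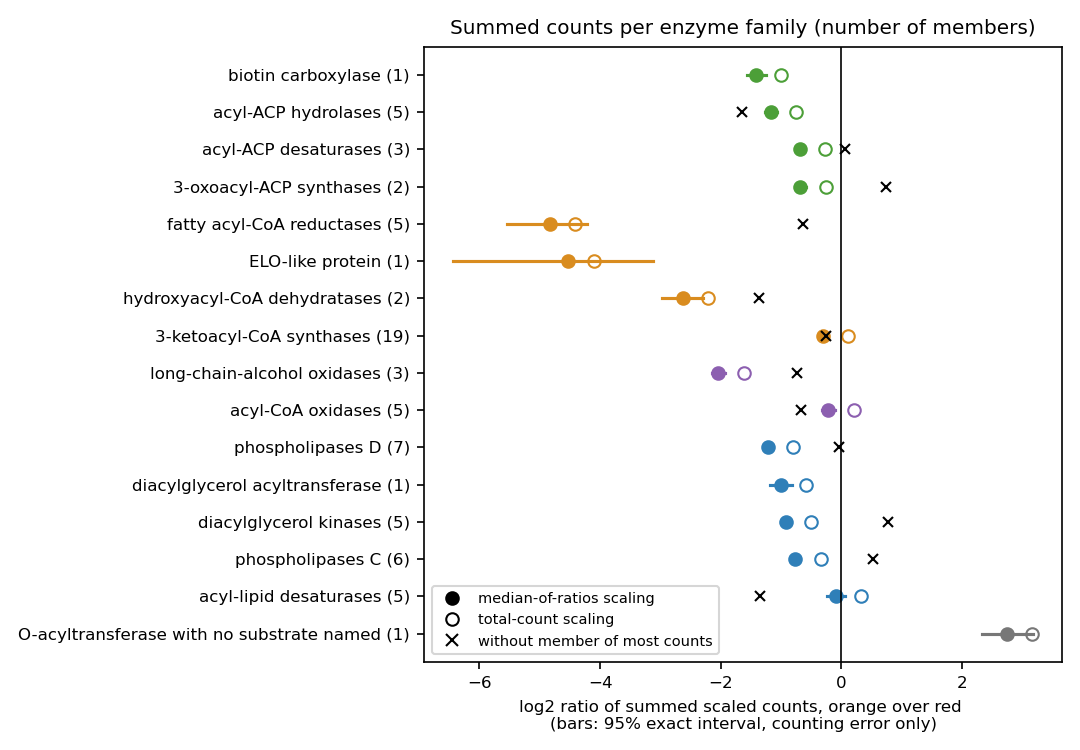
The log2 ratio of summed scaled counts, orange over red, on the x axis for each enzyme family with a measured member; bars are 95% exact intervals for counting error, open circles use total-count scaling, and crosses leave out the family's transcript with the most counts. With the main scaling every family but the single O-acyltransferase lies left of 0. The sum over all transcripts also lies 0.42 left of 0 in that scaling, so 0 is not the background. The crosses of the diacylglycerol kinases, phospholipases C, 3-oxoacyl-ACP synthases and acyl-ACP desaturases fall right of 0.

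The authors' deposited tables give a p-value per transcript from the same 1 library per variety. A p of at most 0.05 was given in the authors' deposited table to 5 of the 72 members (6.94%), against 6.04% of all transcripts. In the authors' deposited table the fatty acyl-CoA reductase DCAR_011780 was the only member with an adjusted p-value of at most 0.05 (0.0428). The other 4 were DCAR_015600, DCAR_014324, DCAR_027519 and DCAR_012668, whose adjusted p-values in the authors' deposited table were 0.0935, 0.119, 0.163 and 0.743. The dispersion behind these values rests on 1 library per variety, and its setting was not stated in the labels.

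Lipid genes that the member rule did not find went both ways as well. Of 47 such transcripts, 30 were measured, of which 7 were higher in red, 5 in orange and 18 in neither. The called shares, 23.3% and 16.7%, were below the 30.6% and 24.4% over all measured transcripts. The median log2 fold was 0.35, against -0.06 over all measured transcripts. Acyl carrier proteins, which hold the chain during plastid synthesis, had 8 measured transcripts; 1 was higher in orange (DCAR_025023, 375 and 733 counts, 2.23-fold, 1.96 to 2.53) and none (0) in red. DCAR_024616 (604 and 1028) and DCAR_027112 (1002 and 1394) passed 2-fold toward orange with total-count scaling alone. Summed over the 9 listed acyl carrier proteins, scaled counts were 1.40-fold higher in orange (1.34 to 1.47), and 1.87-fold with total-count scaling. The 7 higher in red include an ethanolamine utilization eutQ-like transcript, found by a word in its name alone.

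The chloroplast glycerol-3-phosphate acyltransferase DCAR_008221, which attaches the first acyl chain of plastid membrane lipids, had 1264 and 198 counts (5.61-fold higher in red, 4.82 to 6.55). A sphingomyelin synthase-like transcript (Ccrd_003097) had 6575 and 1450 (3.98-fold higher in red, 3.76 to 4.22). An acetyl-CoA carboxylase, ACC1-1 DCAR_013178, is spelled differently in the table and so fell outside the rule; it had 1920 and 604 counts (2.79-fold higher in red, 2.55 to 3.06) and was singled out after its values were seen.

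Oleosins, the proteins that coat oil bodies, had low counts, and 3 of 8 transcripts were measured. These passed the filter only through their orange counts, so their common direction supports nothing beyond the values themselves. DCAR_021717 had 8 red and 112 orange counts (15.9-fold, 7.82 to 37.8). DCAR_000642 had 2 and 81 (46.1-fold, 12.4 to 387), and DCAR_004605 had 1 and 21 (23.9-fold, 3.85 to 989). The other 5 oleosins had 4 counts or fewer in each library. DGAT3, named for the synthesis of the oil that such bodies hold, had more counts in red, as given above.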

How the data were processed

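Root RNA was poly(A)-selected and sequenced, 1 library per variety, per the labels. Tools listed in the submitters' processing notes are HTSeq, HISAT, cutadapt, FastQC and DESeq; their versions, the genome build, the annotation and the strand setting are not given in the sources read. The authors deposited read counts per transcript with protein and gene names. They also deposited normalised counts, a signal found here to be the count times 1 constant per library (0.937 for red, 1.07 for orange). The authors' deposited tables also give p-values.

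Scaled counts are counts over a median-of-ratios size factor, 1.07 in red and 0.937 in orange. The log2 fold has a pseudocount of 0.5; other ratios have none. Intervals are 95% exact Clopper-Pearson intervals. Where a library had 0 counts, the ratio given as "at least" puts 3 counts there. It is not a limit of the exact interval and leaves out counting error in the other library. No p-value was made, since each variety has 1 library. Lists that stand for tissues or for other lipid genes are patterns on protein names. Members, groups and lists were chosen with earlier results of these data known. Named members had a mean scaled count of at least 50, or 0 counts in one library and at least 30 in the other (44 of 72); others are named to account for every member. The interval and the rule for calling were checked on simulated Poisson counts with no variation between plants. That check covers counting error only. Python 3.11.15, pandas 2.3.3, NumPy 2.4.6, SciPy 1.17.1 and matplotlib 3.10.9 were used.

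Family shares, sums without the transcript of most counts, the split of lipid genes by kind and the count of the misspelled carboxylase were added after the data were seen. Transcripts of 1 gene family can exchange reads in counting, and in that respect single transcripts are less certain than family sums. Such exchange was not tested here. Some family sums changed direction with the scaling or without 1 transcript, as given above. Gene names are those of the deposited table, and some are identifiers from other species.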

Additional observations from a re-analysis of the deposited data

How the results depend on the processing

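No paired analysis was possible because each variety has 1 library, and for the same reason no replicate could be left out and no count model with an estimated spread could be fitted. Scaling to total counts gave medians of -0.087 over all members, -0.48 in plastid synthesis, 0.14 in elongation and wax and 0.075 in membrane lipids. The last 2 changed sign, but lay below the 0.35 over all measured transcripts in that scaling. The ratio of summed scaled counts, orange over red, became 0.706 over all members, 0.749 in plastid synthesis, 0.941 in elongation and wax, 0.592 in breakdown and 0.642 in membrane lipids. Calls became 1 toward red and 2 toward orange in plastid synthesis, 7 toward orange in elongation and wax, and 1 toward red in breakdown. A 4-fold limit left 10 calls toward red over all members (1 in plastid synthesis, 5 in elongation and wax, 1 in breakdown, 3 in membrane lipids) and 2 toward orange in elongation and wax. With a minimum mean scaled count of 50, calls toward orange were 7 over all members, 2 in elongation and wax, 1 in breakdown and 2 in membrane lipids. The membrane lipid median was then -0.80. Shares of all transcripts at that minimum are not given here. Without a filter on low counts the median was -0.99 in plastid synthesis and 0.12 in membrane lipids, a change of sign. Leaving out the transcript of most counts, chosen after the data were seen, gave ratios of summed scaled counts of 0.599 over all members, 0.576 in plastid synthesis, 0.849 in breakdown and 0.604 in membrane lipids. The ratio was then above 1, a change of direction, for 3-oxoacyl-ACP synthases (1.67), acyl-ACP desaturases (1.04), diacylglycerol kinases (1.70) and phospholipases C (1.44). Total-count scaling moved the log2 fold of 31 of 44 named members beyond the counting interval. A pseudocount of 5 moved that of 4, each with 0 counts in 1 library, where the fitted value depends on the pseudocount. Transcripts with low counts have wide counting intervals.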
